A study of Homo sapiens with 5 samples.

Results

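The genes described here encode proteins of the small (40S) subunit of the cytosolic ribosome. They were chosen by name, as the rows of a ribosome footprint count table whose symbol is among 30 listed symbols. The table held 25 of these symbols among its 13638 rows, each in a single row. The symbol RACK1 had no row, but its older name GNB2L1, also listed, did. RPS14, RPS15, RPS18 and RPS26 were not analysed here. Of the 25 genes, 24 passed the filter on low counts and are the genes tested. RPS9 was left out by it, with 0 counts in both wild-type libraries and 8, 2 and 5 counts in the knockout libraries. Its row carries a transcript that had no match in GENCODE release 29, and a count of 0 allows up to 0.517 and 0.560 CPM in those libraries (CPM, counts for each 1000000 counts of the library after scaling by trimmed means of M values, TMM).

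Footprints were counted in the near-haploid human line HAP1, which descends from a chronic myeloid leukaemia. There were 2 libraries of wild-type cells and 3 of ZCCHC4 knockout cells. The series names ZCCHC4 as an RNA methyltransferase, and it is known for placing N6-methyladenosine on 28S rRNA of the large subunit. The labels give no treatment and do not say how the knockout was made, whether it is a single clone, or whether libraries came from separate cultures, so the p-values rest on a spread between libraries that may be technical.

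The small subunit binds mRNA and reads its codons. It is built from 18S ribosomal RNA and a set of small basic proteins, most of which are present in a single copy in each ribosome. Many of the mRNAs for these proteins begin with a 5' terminal oligopyrimidine (TOP) tract, a cytosine followed by pyrimidines, through which their translation is coupled to growth signals by mTORC1 and LARP1. Loss of a single copy of several of these genes causes Diamond-Blackfan anaemia. In ribosome profiling the pieces of mRNA left inside ribosomes after nuclease treatment are sequenced, so a count follows both the amount of an mRNA and its occupancy by ribosomes, and these were not separated. In bulk libraries, fewer cells of a kind and less RNA in each cell cannot be told apart.

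The start regions of these genes are shown because the TOP tract is the sequence feature that the group is known for. RefSeq (GRCh38.p14) held a start for 22 of the 25 genes. Each window below runs from 10 bases before the annotated start to 20 bases from it on, 30 bases in all, and capitals mark the unbroken run of C and T that begins at the start. The first 3 belong to genes that rose in the knockout libraries, RPS10 fell, and RPS19, RPS6 and RPS24 did not pass the test. RPS4X rose and has no run at its annotated start.
RPSA (chr3:39406710-39406739, plus strand): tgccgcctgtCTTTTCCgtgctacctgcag
RPS23 (chr5:82278335-82278364, minus strand): cggtgcttctCTCTTTCgctcaggcccgtg
RPS13 (chr11:17077648-17077677, minus strand): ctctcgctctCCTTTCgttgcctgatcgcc
RPS10 (chr6:34426050-34426079, minus strand): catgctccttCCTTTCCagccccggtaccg
RPS19 (chr19:41860245-41860274, plus strand): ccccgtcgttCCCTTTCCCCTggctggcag
RPS6 (chr9:19380217-19380246, minus strand): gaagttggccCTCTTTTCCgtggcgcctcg
RPS24 (chr10:78033853-78033882, plus strand): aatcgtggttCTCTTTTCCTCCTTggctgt
RPS4X (chrX:72277229-72277258, minus strand): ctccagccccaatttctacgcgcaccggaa
A start at C with a run of at least 5 pyrimidines was found in 18 of the 22 genes, taking any start of a gene. By start it was found at 18 of their 25 starts and at 4.07% of all 35116 starts in the RefSeq table. The letters CTTT lay on the gene's strand of the window in 18 of the 22 genes, at 19 of their 25 starts, and at 12.5% of all starts. On the other strand, where they read AAAG, they lay in the window of 0 of the 22 genes and in 9.64% of all starts. CTTT can lie within the run, so these counts overlap. The run was longest in RPS24, at 14 bases, and shortest, at 6 bases, in RPS13, RPS25 and a start of RPS27A. RPS7, RPS28, RPS29 and RPS4X had no run of that length at their annotated start. The run of RPS27A lay 785 bases from the start of its counted transcript, where the window begins with A. For RPS29 the RefSeq start lay 12334 bases from the start of the transcript that was counted, so its window was not that of the counted transcript. The starts printed above for RPS19, RPS23 and RPS13 lay 337, 223 and 120 bases from those of their counted transcripts. Those of RPS25, FAU, GNB2L1 and RPS12 lay 347, 339, 303 and 128 bases away.

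Facts of the libraries that bear on these values were as follows. Wild-type libraries held 5302160 and 4887380 counts and knockout libraries 16940732 to 31557573, so depth and genotype moved together. ZCCHC4 itself was at 16.0 and 13.3 CPM in wild type, against 3.85, 3.41 and 4.98 CPM in knockout. Counts of the wild-type libraries differed from each other slightly beyond counting noise, with a chi-square of 11664 on 10240 degrees of freedom. Knockout replicate 2 stood apart from knockout replicates 1 and 3. The fusion partners BCR and ABL1 were both detected, at means of 6.83 and 1.15 CPM in wild type (n = 2). Of 7 genes of the blood lineage, 3 had a row. TAL1 was at a wild-type mean of 8.53 CPM, CD33 had at most 1 count in a library, and CD34 had 2 counts in each wild-type library and 0 in each knockout library.

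The small-subunit genes together took a slightly larger share of the footprints in the knockout libraries. Their summed share was 3.03% (exact 95% binomial interval 3.02 to 3.05) and 3.00% (2.99 to 3.02) of all counts in the wild-type libraries. It was 3.17% (3.17 to 3.18), 3.18% (3.17 to 3.19) and 3.14% (3.14 to 3.15) in the knockout libraries. All 3 knockout shares lay above both wild-type shares, by a ratio of means of 1.05. The intervals cover counting error only, since footprints copied by PCR are not independent molecules. Summed after TMM scaling, the ratio was 1.22. The 10 most abundant genes of a library took 3.98% to 3.99% of the wild-type counts and 6.05% to 6.51% of the knockout counts. Without the 10 most abundant other genes the ratio of shares was 1.08.

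Comparing the genotypes asks which of these genes hold a larger or smaller part of the footprints in cells labelled as ZCCHC4 knockout. Of the 24 genes tested, 14 rose and 1 fell by edgeR (quasi-likelihood, Benjamini-Hochberg adjusted over 11205 genes), which left 9 without a call. Among all genes tested, 30.2% were called higher and 29.8% lower, or 60.0% in either direction, against 58.3% and 4.17% of the small-subunit genes. In 19 of the 24 genes there was no overlap between wild-type and knockout libraries, 16 with all knockout libraries above and 3 with all below, where 76.4% of all genes tested did not overlap. The median log2 fold change of the 24 genes was 0.29 (1.22-fold), beside 0.02 over all genes tested. With scaling by library totals alone, 6 genes were called higher and 6 lower and the median was 0.07, beside -0.20 over all genes. By that scaling 21.3% of all genes tested were called higher and 40.7% lower. These genes have short coding sequences, of 168 to 951 bases without the stop codon. Other tested genes within that range of coding length, 3085 in all, had a median of 0.15, with 36.9% called higher. After a spline fit over all genes on coding length and GC content the small-subunit median was 0.08, beside 0.08 over all genes tested. With average level added it was -0.24, beside -0.02 over all genes tested. That level includes the knockout values.

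**Figure D1:**
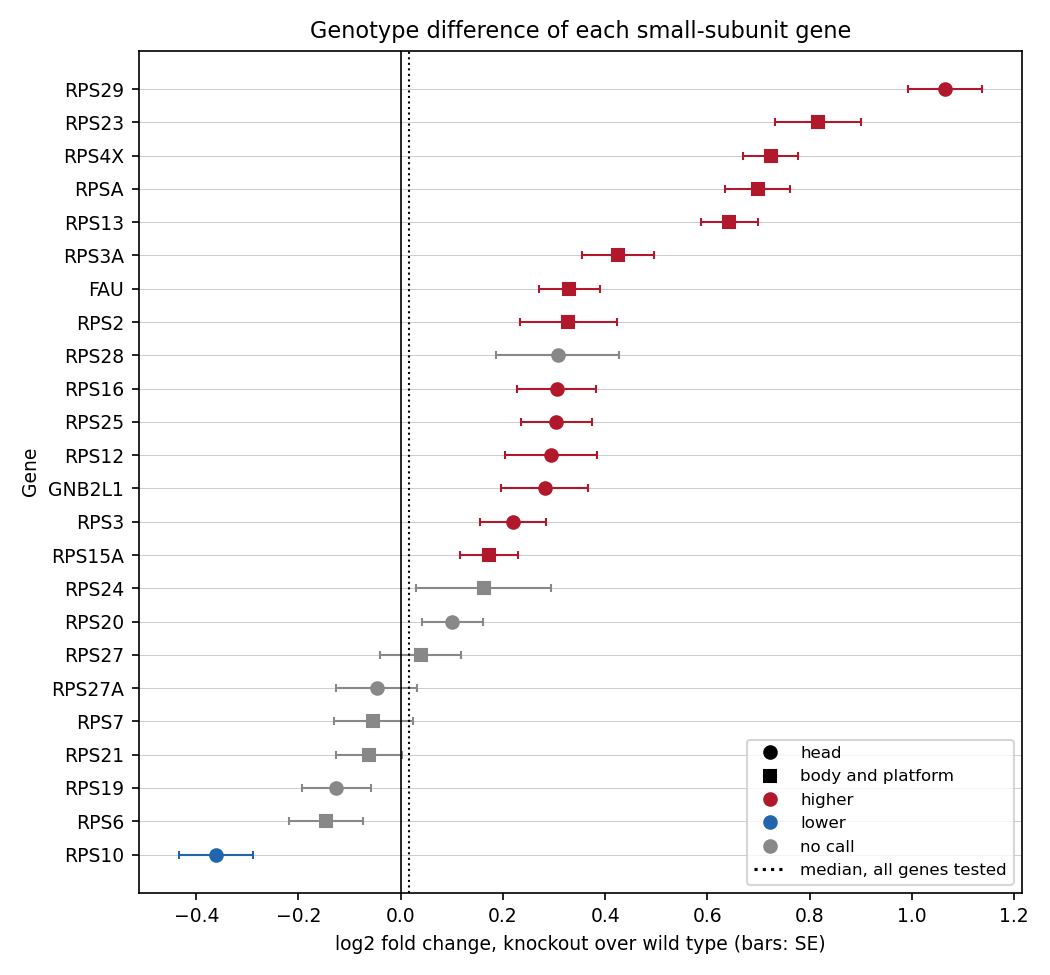
Log2 fold change of each small-subunit gene, knockout over wild type, with bars of 1 SE, circles for proteins of the head and squares for proteins of the body and platform. Red genes rose, the blue gene (RPS10) fell and grey genes did not pass the test. The dotted line at 0.02 is the median of all genes tested. With scaling by library totals alone 6 genes were called higher and 6 lower, where 21.3% and 40.7% of all genes tested were.

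Proteins of the body and platform of the subunit carried 4 of the 5 largest rises. Of 13 such genes tested, 8 rose and 0 fell, leaving 5 without a call, and the median log2 fold change was 0.33. Over all genes tested, 30.2% rose and 29.8% fell. By edgeR, DESeq2 and limma alike, 0 of these 13 fell at an adjusted p under 0.05, and 0 at an unadjusted p under 0.05. With library totals 3 of them were called lower. RPS6 was called lower with upper quartile scaling, a mean count filter of 50, thinned counts or knockout replicate 2 left out. In these fits 29.4% to 40.7% of all genes tested were called lower, the most with library totals.

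RPS23 is a protein of the decoding centre that carries a hydroxylated proline. Its level was 1127 and 1111 CPM in wild type, against 2129.7, 1756 and 2026 CPM in knockout. The groups did not overlap, and knockout replicate 2 was the lowest of the knockout libraries. The log2 fold change was 0.82 ± 0.08 (SE, 1.76-fold), with an edgeR adjusted p of 4.3e-05. The counted transcript lies on chromosome 5, 82273358 to 82278577 (GRCh38, minus strand), and has 4 exons.

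RPS4X is encoded on the X chromosome (72272042 to 72277300, minus strand, 7 exons) and has a homologue on the Y chromosome. Its level was 1745 and 1681.5 CPM in wild type, against 2803, 2874 and 2814 CPM in knockout. The knockout libraries lay close together and well above wild type. The log2 fold change was 0.72 ± 0.05 (SE, 1.65-fold, edgeR adjusted p = 6.96e-06).

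RPSA, also known as a precursor of the laminin receptor, sits at the back of the subunit. It had 1032 and 1009 CPM in wild type, against 1641, 1742 and 1585 CPM in knockout, again with no overlap. The log2 fold change was 0.70 ± 0.06 (SE, 1.62-fold, edgeR adjusted p = 2.1e-05). RPS13, which forms a contact with the large subunit, had 1174 and 1179 CPM in wild type, against 1852, 1799 and 1859.7 CPM in knockout. Both groups were tight, and the log2 fold change was 0.64 ± 0.06 (SE, 1.56-fold, edgeR adjusted p = 1.57e-05). The counted transcripts lie on chromosome 3, 39406689 to 39412542 (plus strand, 7 exons) for RPSA and on chromosome 11, 17074389 to 17077787 (minus strand, 6 exons) for RPS13.

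The other body and platform genes that rose did so by less. RPS3A, a platform protein, rose from 1754 ± 11.4 CPM (SD, n = 2) to 2354 ± 176 (SD, n = 3), or 0.43 ± 0.07 on the log2 scale (SE). FAU, which encodes a ribosomal protein fused to a ubiquitin-like protein, rose by 0.33 ± 0.06 on that scale. RPS2, a protein of the mRNA entry channel, was at 0.33 ± 0.09, and RPS15A was at 0.17 ± 0.06. With library totals, which moved the median of all genes from 0.02 to -0.20, RPS15A was at -0.05.

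The 5 body and platform genes that did not pass lay on both sides of 0. RPS24, a gene of Diamond-Blackfan anaemia, was at 0.16 ± 0.13 on the log2 scale (SE) and RPS27, a zinc-binding protein, at 0.04 ± 0.08. RPS7 was at -0.05 ± 0.08, RPS21 at -0.06 ± 0.06, and RPS6, the substrate of the S6 kinases, at -0.15 ± 0.07. All 3 knockout libraries of RPS6 lay below wild type, at a mean of 1813 ± 147.5 CPM (SD, n = 3) against 2006.5 ± 21.8 (SD, n = 2).

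**Figure D2:**
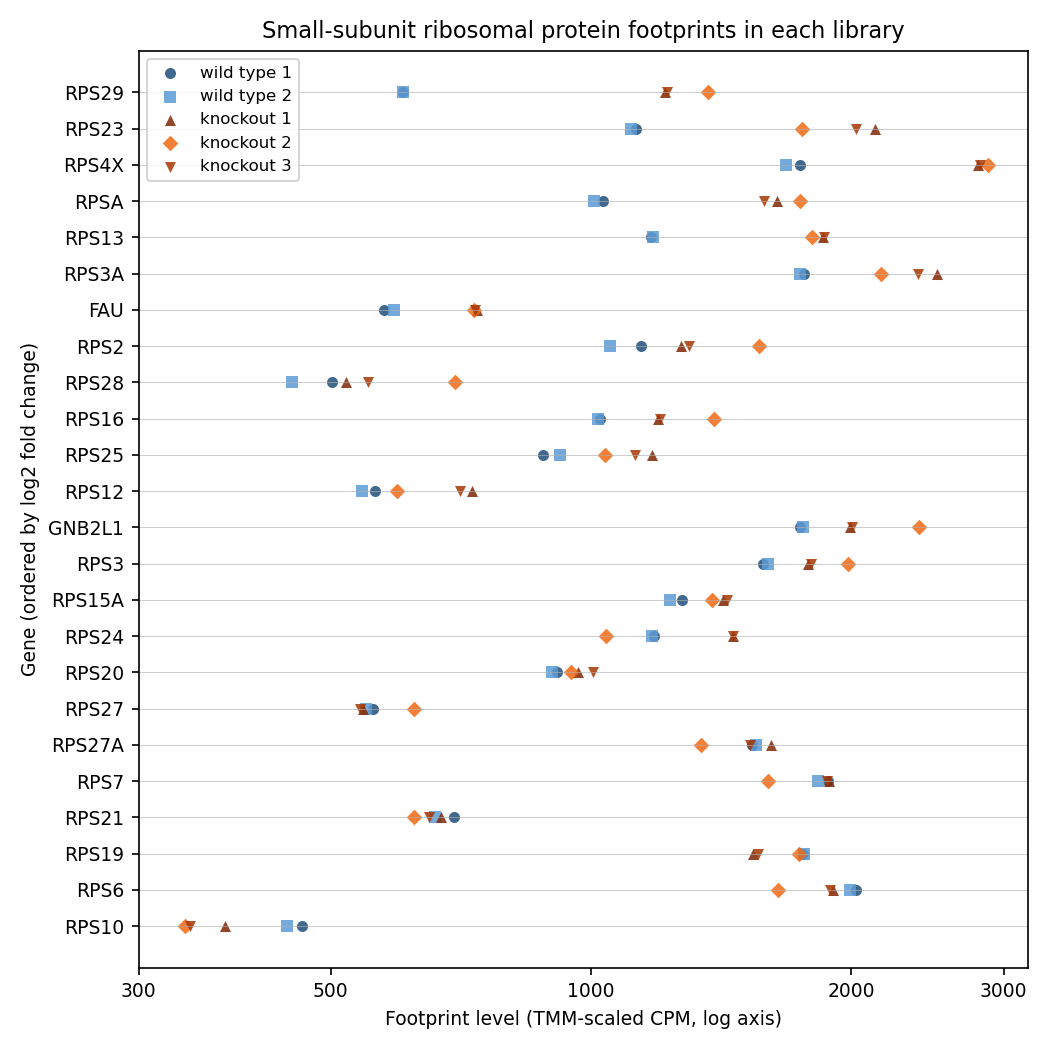
Footprint level of each small-subunit gene in each of the 5 libraries, in TMM-scaled CPM on a log axis, with genes ordered by log2 fold change. The libraries labelled knockout lie to the right of both wild-type libraries for the genes at the top and to the left for RPS10 at the bottom, and knockout replicate 2 often lies apart from the other knockout libraries.

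Proteins of the head held both the largest rise and the 1 fall. Of 11 genes tested, 6 rose and 1 fell, leaving 4 without a call, and the median log2 fold change was 0.28. The shares over all genes tested were 30.2% higher and 29.8% lower. With library totals RPS29 alone of these was called higher, and RPS10, RPS27A and RPS19 were called lower. By that scaling 21.3% of all genes tested were called higher and 40.7% lower. RPS29, a small zinc-binding protein of the head, had 606 and 607 CPM in wild type, against 1218, 1366 and 1223 CPM in knockout. All knockout libraries lay far above both wild-type libraries, with a log2 fold change of 1.07 ± 0.07 (SE, 2.09-fold, edgeR adjusted p = 4.13e-06). Its counted transcript lies on chromosome 14, 49583572 to 49586376 (minus strand), and has 3 exons.

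RPS10, a head protein that is ubiquitylated when ribosomes collide, went the other way. It had 463 and 445 CPM in wild type, against 377, 339 and 343 CPM in knockout. Every knockout library lay below both wild-type libraries, a fall of 1.28-fold (log2 fold change -0.36 ± 0.07 (SE), edgeR adjusted p = 0.00225). With the most alike libraries summed RPS10 had no call. The counted transcript lies on chromosome 6, 34417454 to 34426125 (minus strand, 6 exons). RPS10 shares its locus with the read-through gene RPS10-NUDT3, and every 30-base window of its coding sequence also occurs in transcripts of genes elsewhere, so its value is uncertain where reads could be split.

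RPS16, whose tail reaches the tRNA in the P site, had 1024 and 1018 CPM in wild type, against 1195.5, 1386 and 1202 CPM in knockout. Knockout replicate 2 was the highest, and the log2 fold change was 0.30 ± 0.08 (SE, edgeR adjusted p = 0.00728). RPS25, which is needed for initiation at several internal ribosome entry sites, had 879.8 and 922 CPM in wild type, against 1176, 1038 and 1123 CPM in knockout. Here replicate 2 was the lowest of the knockout libraries, and the log2 fold change was also 0.30 ± 0.07 (SE, edgeR adjusted p = 0.00463). The counted transcripts lie on chromosome 19, 39433207 to 39435948 (minus strand, 5 exons) for RPS16 and on chromosome 11, 119015712 to 119018690 (minus strand, 5 exons) for RPS25.

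Of the other head genes, RPS12 rose by 0.29 ± 0.09 on the log2 scale (SE). GNB2L1, which encodes the signalling scaffold RACK1, rose by 0.28 ± 0.08, and RPS3, a protein of the mRNA entry channel, by 0.22 ± 0.06. RPS28 was at 0.31 ± 0.12 and did not pass, at an edgeR adjusted p of 0.0506. RPS20, a ubiquitylated protein of the head, was at 0.10 ± 0.06, and RPS27A, which is made as a fusion to ubiquitin, at -0.05 ± 0.08. RPS19, the first gene linked to Diamond-Blackfan anaemia, had 1760.0 and 1761 CPM in wild type, against 1541, 1739 and 1559.9 CPM in knockout. All knockout libraries lay below wild type, replicate 2 only just, and its log2 fold change of -0.13 ± 0.07 (SE) did not pass (edgeR adjusted p = 0.132).

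Groups formed by function, which share members with the groups above, gave these counts. They are to be read against the 30.2% higher and 29.8% lower of all genes tested. Of 5 tested proteins of the mRNA entry and decoding side, 4 rose and 1 did not pass. Of 5 that are ubiquitylated or act as scaffolds in ribosome quality control, 3 rose, 1 fell and 1 did not pass. Of the 7 tested genes listed here for Diamond-Blackfan anaemia, RPS29 rose, RPS10 fell and 5 had no call. The median log2 fold change of these 7 was 0.04. The difference between these groups was not tested.

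Support for the calls was uneven. Across 15 alternative fits the call was lost in 10 for RPS15A, 8 for RPS12, 7 for RPS3 and 6 for GNB2L1. It was lost in 5 for RPS2, 4 for RPS16, 3 for RPS25, 2 for FAU and 1 each for RPS3A and RPS10. RPS29, RPS23, RPS4X, RPSA and RPS13 were called higher in each of 15 alternative fits. With the most alike libraries summed, 5 of the 24 genes rose and 0 fell, beside 20.3% and 20.5% of all genes tested. The excess of rises in the main fit was therefore not seen in that fit. Without wild-type replicate 1 or 2 only 1 wild-type library was left, and fewer genes rose than in the main fit. That held for the small-subunit genes and for all genes tested. The small-subunit median log2 fold change was 0.27 without replicate 1 and 0.25 without replicate 2, beside 0.03 and 0.02 over all genes tested.

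Knockout replicate 2 departed from replicates 1 and 3 in a direction that moved with base composition. Over the 24 genes the log2 ratio of replicate 2 to the mean of replicates 1 and 3 ran from -0.49 in RPS24 to 0.37 in RPS28, with an SD of 0.21. The ratio of knockout replicate 3 to replicate 1 had an SD of 0.05, and so did that of the wild-type pair. In 8 genes replicate 2 was lower by more than 0.1, and their coding GC content ran from 42.7% to 47.9%. In 9 genes it was higher by more than 0.1, and theirs ran from 50.0% to 62.3%. Across the 24 genes, which share the same libraries, Pearson's r of this ratio with coding GC content was 0.78 and Spearman's rho 0.76, as a description. Over 11075 tested genes with counts, r was 0.57 and rho 0.67. The log2 fold change between genotypes had r = -0.04 with coding GC content across the same 24 genes.

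RPS24 and RPS28 show what this meant for single genes, and were chosen after their values were seen. RPS24 had 1182.5 and 1175 CPM in wild type, against 1459, 1039.5 and 1458 CPM in knockout, so replicates 1 and 3 lay above wild type and replicate 2 below. Without replicate 2 its log2 fold change was 0.31, with an edgeR adjusted p of 5.05e-15. With all libraries it was 0.16, with an edgeR adjusted p of 0.312. RPS28 had 502 and 451 CPM in wild type, against 521, 696 and 552 CPM in knockout, and its value was 0.17 without replicate 2 (edgeR adjusted p = 7.21e-05). Without replicate 2, 17 of the 24 genes were called higher and 3 lower, the last being RPS10, RPS6 and RPS19. In that fit 37.3% of all genes tested were called higher and 35.9% lower, above the 30.2% and 29.8% of the main fit. That fit rests on knockout replicates 1 and 3, whose ratio had the SD of 0.05 given above. Its small p-values therefore rest on a spread that may be technical.

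**Figure D3:**
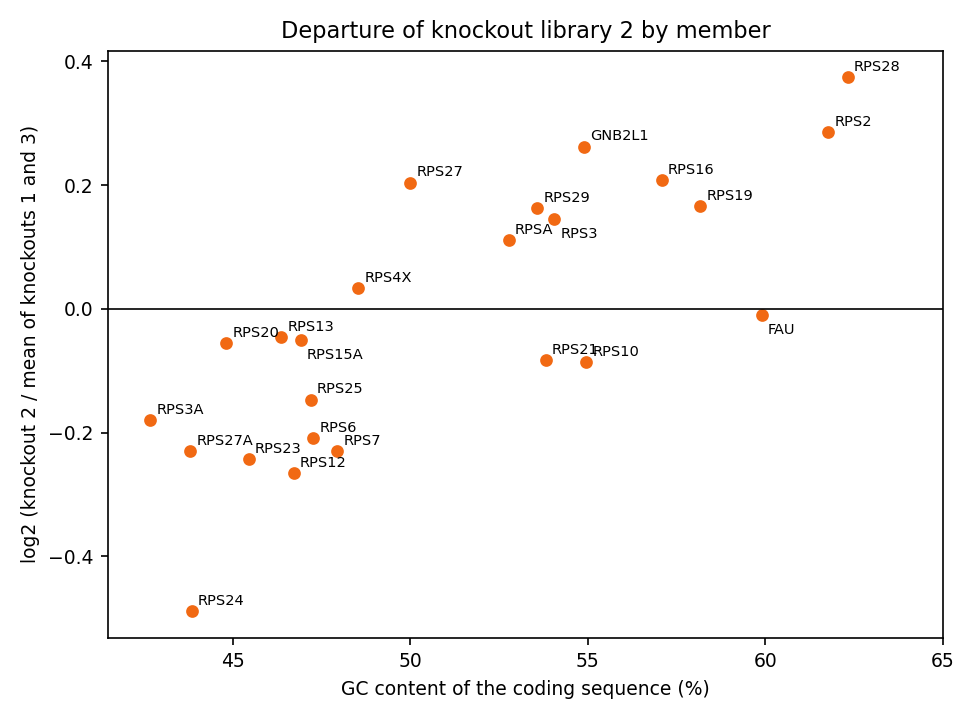
Log2 ratio of knockout replicate 2 to the mean of knockout replicates 1 and 3 for each small-subunit gene (vertical axis) against the GC content of its coding sequence in percent (horizontal axis). RPS24, at 43.9% GC, has the lowest ratio, -0.49, and the highest ratio, 0.37, belongs to RPS28 at 62.3% GC.

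Because the ribosome holds these proteins in about equal number, footprint density is of interest beside fold change. Density is given as CPM per kilobase of coding sequence, and this scale alone is used to compare genes. The median density of the 24 genes was 2386 and 2391 in wild type, against 2718, 2723 and 2781 in knockout. In wild type the densest gene was RPS19, at 4046 and 4048, followed by RPS29 at 3610 ± 0.469 (SD, n = 2). The sparsest was RPS10, at 935 and 898.5, followed by RPSA at 1166 and 1140. The densest gene stood 4.33-fold and 4.51-fold above the sparsest in the wild-type libraries.

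The range was wider in each knockout library, at 9.52-fold, 11.9-fold and 10.5-fold. The SD of log2 density across the 24 genes was 0.54 and 0.55 in wild type, against 0.64, 0.65 and 0.66 in knockout. In the knockout libraries RPS29 was the densest, at 7250, 8131 and 7281, and RPS10 the sparsest, at 762, 685 and 694. RPS19 was at 3709 ± 252 in the knockout (SD, n = 3) and RPSA at 1871 ± 90.3. RPS23 went from 2609 ± 27.2 to 4593 ± 450 and RPS4X from 2172 ± 57.2 to 3587 ± 48.7. The log2 fold change had r = 0.01 and rho = -0.25 with wild-type log2 density across the 24 genes.

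**Figure D4:**
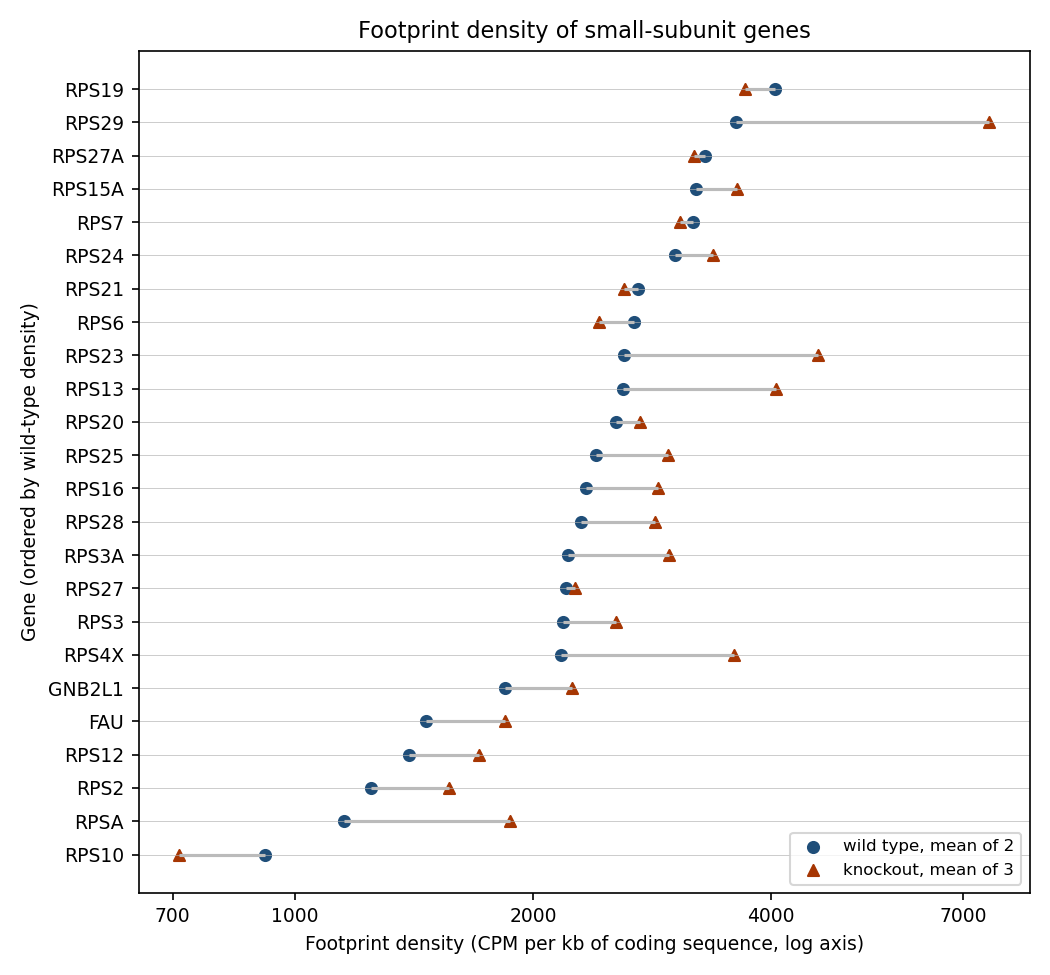
Footprint density of each small-subunit gene, in CPM per kilobase of coding sequence on a log axis, as the mean of 2 wild-type libraries (blue circles) and of 3 knockout libraries (brown triangles), ordered by wild-type density. RPS19 is the densest in wild type and RPS29 in the knockout, and RPS10 is the sparsest in both.

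Small-subunit genes have many processed pseudogenes, and near-identical copies can take or lend reads. Of the 30-base windows of a coding sequence, the share that also occurs in transcripts of genes elsewhere in GENCODE ran from 3.3% in GNB2L1 to 100.0% in RPS10, RPS27, RPS28 and RPS3A, with a median of 73.6%. RPSA shared windows with 60 other genes, and RPSAP58 alone held 86.0% of its windows. Of 6 genes with under 50% shared, 3 rose and 3 had no call; the median log2 fold change was 0.11. Of 11 with 50% to under 90%, 9 rose and 2 had no call; the median log2 fold change was 0.30. Of 7 with 90% or more, 2 rose and 1 fell, leaving 4 without a call, and the median log2 fold change was 0.04. Of all genes tested, 30.2% rose and 29.8% fell. Across the 24 genes r between the shared share and the log2 fold change was 0.03, and between the shared share and wild-type log2 density -0.21. How the counting treated reads that map to several places is not given in the sources used here.

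RPS13, RPS10 and RPS6, whose start windows are printed above, all carry the pyrimidine run and were at 0.64, -0.36 and -0.15 on the log2 scale. RPS4X, whose window has no such run, was at 0.72. Of all 17 tested genes with the run, 10 rose, 1 fell and 6 had no call, with a median of 0.28. Of the 4 without it at their annotated start, 2 rose and 2 had no call, with a median of 0.52. They were RPS29 at 1.07, RPS4X at 0.72, RPS28 at 0.31 and RPS7 at -0.05. RPS29 was placed here by a RefSeq start 12334 bases from that of its counted transcript, so its own window is not known. Among the 17, the run of RPS27A lay 785 bases from the start of its counted transcript, where the window begins with A. Among all genes tested, 30.2% rose and 29.8% fell. No difference between genes with and without the run was tested.

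Genes that work with the small subunit were compared by lists that share no member with it. Their counts stand beside 30.2% higher and 29.8% lower among all genes tested. Of 40 tested large-subunit protein genes, 25 rose and 4 fell, leaving 11 without a call, and the median log2 fold change was 0.31, close to the 0.29 of the small subunit. RPLP1, a stalk protein, was at 2.04 ± 0.07 (SE), and RPL7A and RPL23A at 1.44 ± 0.06 and 1.31 ± 0.06. These rises exceed that of RPS29, the largest in the small subunit. Of 10 tested rows of other mRNAs known for a TOP tract, 4 rose and 1 fell, leaving 5 without a call, and the median log2 fold change was 0.20. HNRNPA1, a splicing regulator, was at 0.99 ± 0.07, the initiation factor EIF4B at 0.59 ± 0.07 and the poly(A)-binding protein PABPC1 at 0.39 ± 0.07. RPS27L, a paralog of RPS27 and a target of p53, fell from 386 ± 5.87 CPM (SD, n = 2) to 206 ± 16.9 (SD, n = 3), or -0.91 ± 0.08 on the log2 scale (SE, edgeR adjusted p = 2.18e-05), beside 0.04 ± 0.08 for RPS27.

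Factors that build or modify the small subunit, or modify ribosomal proteins, held calls in both directions. Their shares are to be read against the 30.2% higher and 29.8% lower of all genes tested. Of 14 late assembly factors and chaperones, 5 rose and 1 fell, leaving 8 without a call, and the median log2 fold change was 0.10. BYSL, which binds the pre-40S particle, was at 1.27 ± 0.10 (SE), the kinase RIOK2 at 0.80 ± 0.11, and TSR2, the chaperone of the protein encoded by RPS26, at 0.52 ± 0.09. Of 6 tested genes for base modifiers of 18S rRNA, 2 rose, 3 fell and 1 did not pass. EMG1, a pseudouridine methyltransferase, was at 1.67 ± 0.11, while WBSCR22, which makes a 7-methylguanosine, and DIMT1, which dimethylates adenosines, were at -0.72 ± 0.08 and -0.63 ± 0.08. Of 9 tested modifiers of ribosomal proteins and quality control factors, 3 rose, 2 fell and 4 did not pass. The deubiquitylase USP10 was at 0.85 ± 0.09, and C14orf169 and MINA, histidine hydroxylases of ribosomal proteins, were at 0.89 ± 0.14 and -0.50 ± 0.09.

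Of 10 genes that control translation of TOP mRNAs, 5 rose, 3 fell and 2 did not pass, where 30.2% of all genes tested rose and 29.8% fell. EIF4EBP1, a repressor of cap-dependent initiation, fell from 532 ± 2.90 CPM (SD, n = 2) to 79.9 ± 0.169 (SD, n = 3), or -2.74 ± 0.07 on the log2 scale (SE, edgeR adjusted p = 2.32e-08). MTOR, the kinase of mTORC1, was at -0.91 ± 0.09, and TSC1, which restrains that kinase, at 1.82 ± 0.18 from a wild-type mean of 5.26 CPM. With library totals the large-subunit genes called numbered 16 higher and 12 lower, and the late assembly factors 3 higher and 6 lower. By that scaling 21.3% of all genes tested were called higher and 40.7% lower. No difference between these lists and the small-subunit genes was tested.

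**Figure D5:**
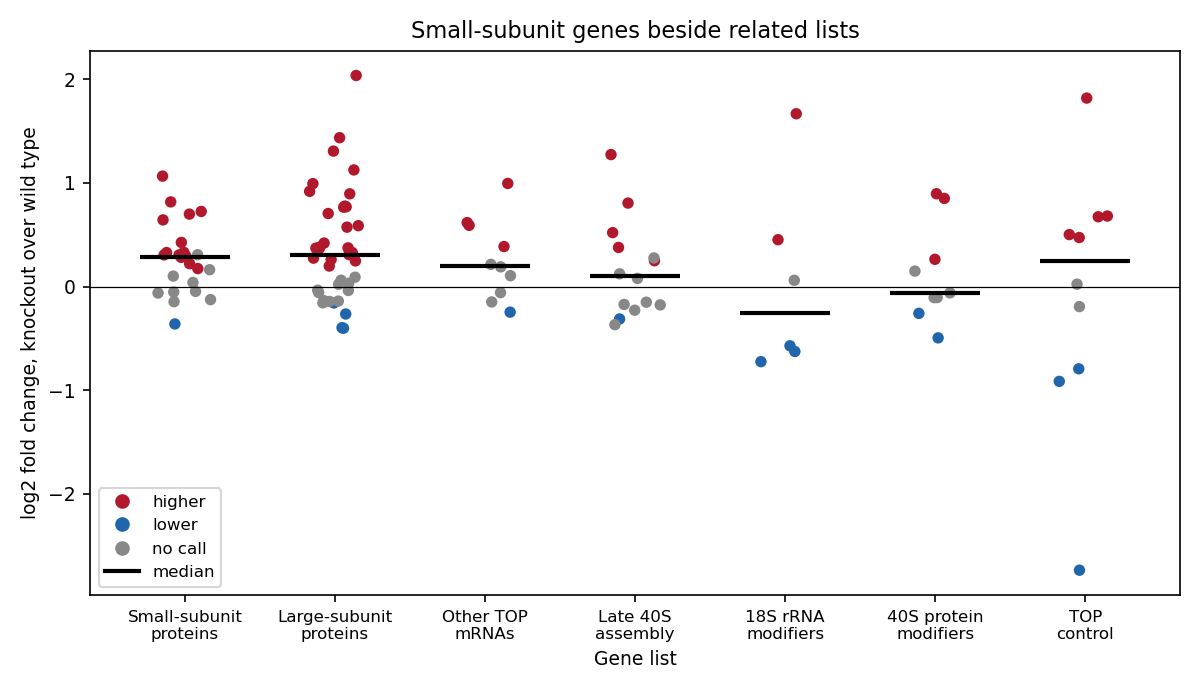
Log2 fold change, knockout over wild type, of each tested gene (points, with random horizontal spread) in the small-subunit list and in 6 related lists, with the median of each list as a black bar. Red genes rose, blue genes fell and grey genes did not pass the test; the small-subunit median is 0.29 and the large-subunit median 0.31 with TMM scaling.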

How the data were processed

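Ribosome footprints were sequenced from cycloheximide lysates of HAP1 cells, per the labels' protocols. The authors' deposited table holds whole-number counts per transcript, not normalized, per the file headers, with the header line shifted by 1 cell. Bowtie and hg38 are named in the submitters' processing notes; for the counter, annotation, strand, duplicates and reads with several matches, the method is not given in the sources used here. Genotypes were compared by edgeR 4.0.16 under R 4.3.3 (TMM, filterByExpr with a minimum count of 10, quasi-likelihood test on genotype, Benjamini-Hochberg adjusted p under 0.05 over all 11205 rows kept). SE is the log2 fold change divided by the square root of F. There were 15 alternative fits, DESeq2 1.42.0 and limma 3.58.1 voom among them. Coding length, GC content and coordinates come from GENCODE 29 (GRCh38) by transcript identifier, with 105 of 13638 rows unmatched. The members and lists were chosen with earlier results of these data known. Values in every library are given for the 4 genes with the smallest adjusted p among head and among body and platform proteins, for genes called lower and for the 2 densest and 2 sparsest genes; in each other list, up to 3 genes with the smallest adjusted p are named. One list of further small-subunit genes is given here by its paralog RPS27L alone.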

Additional observations from a re-analysis of the deposited data

How the results depend on the processing

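Of 360 values of the 24 genes under 15 alternative fits, 285 kept their direction and side of the threshold, 47 lost the call, 19 gained one and 9 changed sign. The numbers of rises and falls were 14 and 1, beside 30.2% and 29.8% of all genes tested. Library totals gave 6 and 6 (median 0.0697), beside 21.3% and 40.7% of all genes tested in that fit. Upper quartile scaling gave 10 and 2 (median 0.22), beside 27.1% and 32.6%. A mean count filter of 50 gave 10 and 3 (median 0.22), beside 29.9% and 30.2%. Counts thinned to the smallest library gave 13 and 2, beside 28.9% and 29.4%. With the most alike libraries summed they were 5 and 0, beside 20.3% and 20.5% (edgeR, where 0 fell at an unadjusted p under 0.05 too). Leaving out 1 library gave 7 to 17 rises, 1 to 3 falls and medians of 0.21 to 0.28. The spline fits gave medians of 0.0773 (length and GC) and -0.24 (level added), beside 0.0779 and -0.0174 over all genes tested. The ratio of summed shares was 1.05, 1.08 without the 10 most abundant other genes and 1.22 with TMM scaling. Sign changes, with those after the spline, were RPS27 (-0.0224 with upper quartile scaling, -0.18 with library totals, -0.032 under the mean count filter and -0.0325 to 0.0718 when a library was left out), RPS20, RPS24 and RPS15A with library totals (-0.12, -0.0578 and -0.0453), RPS7 and RPS27A without knockout replicate 2 (0.0182 and 0.0246, with lows of -0.0998 and -0.113 when another library was left out), and RPS15A, RPS20, RPS24 and RPS27 after the spline on length and GC (-0.10, -0.22, -0.18 and -0.19). With level added to the spline, only RPS29 (0.49), RPSA (0.25), RPS23 (0.24), RPS4X (0.22) and RPS13 (0.08) stayed above 0. The other genes above 0 in the main fit then lay below it, from RPS2 (-0.07) to RPS27 (-0.49). The causes were not tested. With replicate number as a replicate block, 12 rose and 1 fell, where 27.4% and 27% of all genes tested did. The labels do not say that numbers pair libraries. Over 9501 genes the difference of replicates 1 and 2 had a correlation of -0.095 between genotypes. Each member had a single row, so summing rows of a symbol was not run. Depth limits the wild-type libraries most, where 3 counts equal 0.517 and 0.560 CPM.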
